A study of Mus musculus with 4 samples.

Results

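A set of 10 genes of the Wnt and beta-catenin pathway, Ctnnb1, Apc, Axin1, Axin2, Lgr5, Glul, Nkd1, Tcf7, Lef1 and Rnf43, was followed in RNA from Hepa1-6 cells, a mouse hepatocellular carcinoma line. They were taken by symbol and are 10 of the 54838 genes listed in each library. The series compared cells that were wild type for Acvr2a (NC, 2 samples) with Acvr2a knockout subclones of the same line (KO, 2 samples), and its title frames the question around ACVR2A, lactate, glycolysis and regulatory T cells. No treatment or time was given for either group. The sources do not say whether KO 1 and KO 2 were separate subclones, so an effect of losing Acvr2a and a difference between clones cannot be told apart. Nothing says that the samples came from separate cultures, so p-values measure only the spread between these samples, which may be technical.

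In Wnt signalling, secreted Wnt proteins bind Frizzled receptors and the co-receptors Lrp5 and Lrp6. Without that signal, a destruction complex built on Axin and Apc marks beta-catenin for degradation. With it, beta-catenin enters the nucleus, binds TCF/LEF proteins and raises target genes, several of which feed back on the pathway. In liver the pathway is known for setting the gene programme of hepatocytes around the central vein, where glutamine synthetase (Glul) is made, and for activating mutations in hepatocellular carcinoma.

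Library totals lay between 11597923 and 13910582 expected counts, the authors' estimated read counts per gene. Acvr2a, the targeted gene on chromosome 2, held 80.99 and 108.43 counts in the NC libraries, and in the KO libraries 74.69 and 97.40. These ranges overlap, and the log2 fold change of KO over NC was -0.21 (SE 0.20, adjusted p = 0.433, edgeR quasi-likelihood test). The level of Acvr2a RNA therefore does not check the labels, and KO below means the libraries labelled KO. Exons of Acvr2a overlap those of Orc4 on the opposite strand, which held 587.01 and 691.57 counts (NC) and 391.31 and 456.60 (KO). Of 9 hepatocyte and hepatoma markers, 7 reached 1 TPM in all libraries, and Ttr and Serpina1a stayed under it. TPM is a level scaled by transcript length and library size. The summed level of the 9 was 1490 to 1544 TPM in NC and 1784 to 1840 in KO. Single markers went both ways: Alb (497.7 and 472.6 TPM in NC, 624.2 and 712.6 in KO) and Trf (371.3 and 350.3, then 586.4 and 547.3) were higher in KO. Afp (167.4 and 160.2, then 74.1 and 72.9) and Hnf4a (95.1 and 91.6, then 54.5 and 47.5) were lower. All 4 cholangiocyte markers were present, at a summed 70.9 to 83.1 TPM in NC and 115.6 to 117.4 in KO. Among 5 fibroblast markers only Dcn reached 1 TPM in all libraries (summed level 1032 to 1094 in NC, 1229 to 1234 in KO), with Lrat at 0. Among 5 leukocyte markers only Cd68 did (summed level 24.3 to 27.8 in NC, 55.7 to 68.1 in KO), with Cd3e at 0, and 0 of 4 endothelial markers did. The part of these marker shifts in the results below was not tested.

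All 10 genes were expressed, and all passed the low-count filter. Their levels spanned a 66.0-fold range in mean TPM, and by that mean they ranked from 371 (Ctnnb1) to 9324 (Lef1) among the listed genes. In NC the order by mean TPM ± SD (n = 2) began with Nkd1 at 335.7 ± 11.4, Glul at 315.2 ± 42.8 and Ctnnb1 at 306.1 ± 24.8, whose ranges overlapped from each to the next. Axin2 followed at 123.7 ± 18.9, Tcf7 at 94.9 ± 12.8, Rnf43 at 51.9 ± 0.156, Lgr5 at 38.0 ± 4.58 and Axin1 at 27.1 ± 1.99, each apart from the next. Apc at 6.50 ± 0.877 and Lef1 at 5.67 ± 1.14 were lowest and overlapped. In KO the order opened with Ctnnb1 at 275.1 ± 0.933, then Nkd1 at 229.4 ± 20.2 and Glul at 151.4 ± 13.7, and no neighbours overlapped. The levels of Nkd1 and Glul thus lay with that of Ctnnb1 in NC and below it in KO. Tcf7 at 76.6 ± 1.4 and Rnf43 at 73.3 ± 1.63 TPM lay close together in KO, where Tcf7 had been clearly higher in NC.

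**Figure D1:**
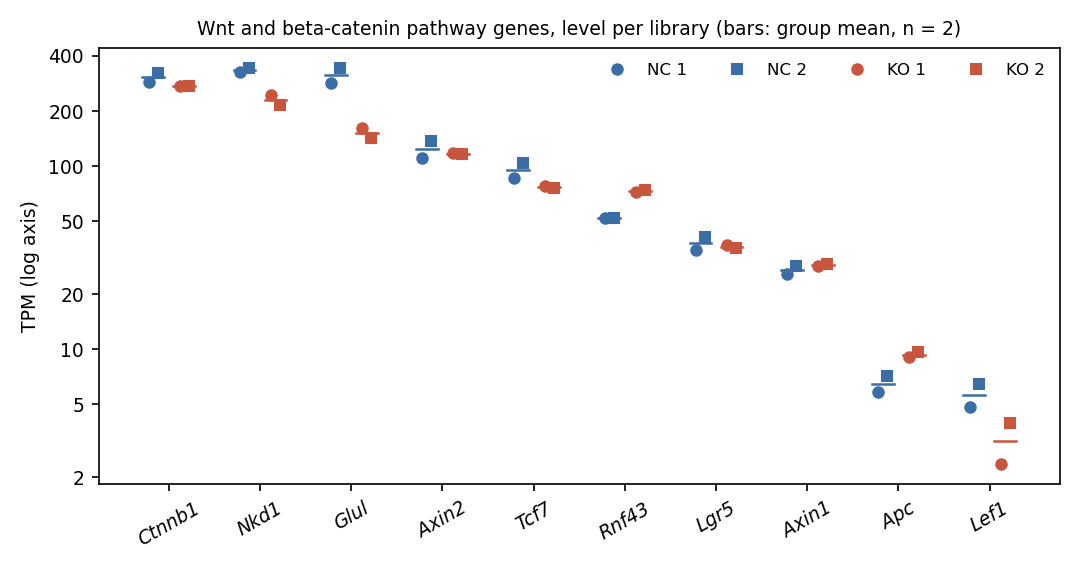
Levels of the 10 genes in each library, in TPM on a log axis; points are single libraries of NC and KO. Glul, Nkd1, Ctnnb1, Tcf7 and Lef1 lie lower in both KO libraries (Glul 161.1 and 141.7 TPM against 284.9 and 345.4). Apc and Rnf43 lie higher, and Axin2, Axin1 and Lgr5 overlap between the groups.

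Compared as counts, 5 of the 10 genes changed between KO and NC at an adjusted p under 0.05. Glul, Nkd1, Axin2 and Tcf7 fell and Apc rose, while Ctnnb1, Axin1, Lgr5, Lef1 and Rnf43 did not pass. Over all 12510 genes tested, 37.9% passed, with 19.7% higher and 18.2% lower in KO, so a count of 5 among 10 is not far from the background. The median log2 fold change of the 10 was -0.28, with 8 negative and 2 positive. For all genes tested the median was -0.0037, with 6311 negative and 6199 positive. The 10 were chosen with earlier results of these data known. CPM values, counts scaled to a common library size with TMM, did not overlap between the groups for any of the 10, and the same held for 69.4% of the genes tested. DESeq2 called the same 5 genes, where its background was 25.7% (13.3% higher, 12.4% lower).

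**Figure D2:**
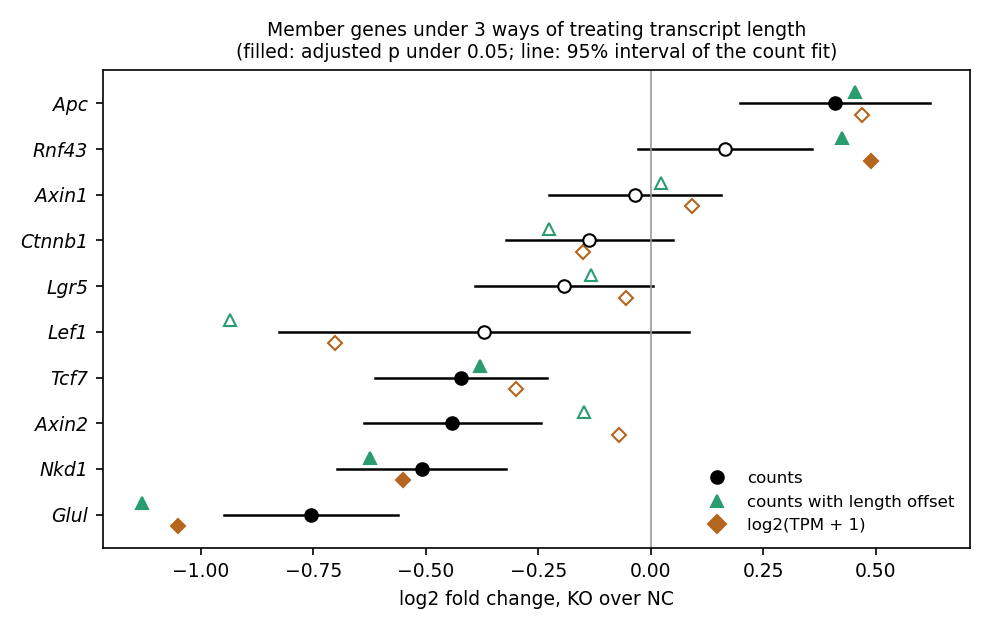
Log2 fold change of KO over NC for each gene with its 95% interval, from expected counts, beside the values from TPM and from counts with an effective length offset. Glul and Nkd1 lie below 0 and pass by all 3 measures. Ctnnb1, Axin2, Lgr5, Tcf7 and Lef1 also lie below 0 by all 3, but do not pass in each. Axin2 moves from -0.44 in counts to -0.070 in TPM, and Rnf43 moves from 0.16 to 0.49.

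Of beta-catenin and the destruction complex scaffolds Apc and Axin1, Apc alone passed the test, and it rose. Ctnnb1, which encodes beta-catenin itself (ENSMUSG00000006932.17, chromosome 9, 120929216 to 120960507, plus strand, GRCm38), stood at 445.1 and 440.9 CPM in NC and 401.7 and 404.4 in KO. The KO libraries were both lower by a small margin, and the log2 fold change was -0.14 (SE 0.090, 95% interval -0.32 to 0.049, adjusted p = 0.244, edgeR quasi-likelihood). A fall larger than 0.32 on the log2 scale therefore lies outside the interval of beta-catenin mRNA. RNA counts say nothing of beta-catenin protein, which the complex controls.

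Apc, the scaffold whose loss stabilises beta-catenin in colon cancer, lies on chromosome 18 (ENSMUSG00000005871.14, 34220924 to 34322552, plus strand). It stood at 59.8 and 75.0 CPM in NC and 87.5 and 92.0 in KO. Both KO libraries were above both NC libraries, and the NC libraries differed from each other more than the KO libraries did. Apc rose by 32.8% (log2 fold change 0.41, SE 0.10, adjusted p = 0.00254, edgeR quasi-likelihood). Without NC 1 the log2 fold change was 0.25 and the adjusted p 0.138, so the call rested on that library. In TPM, where Apc stood at 5.88 and 7.12 in NC against 9.03 and 9.66 in KO, the value was 0.47 and did not pass (adjusted p = 0.0793, limma). Axin1, the scaffold that limits how much complex can form (ENSMUSG00000024182.16, chromosome 17, 26138688 to 26195811, plus strand), stood at 78.9 and 80.4 CPM in NC and 78.2 and 77.4 in KO. Its log2 fold change of -0.035 (95% interval -0.23 to 0.16, adjusted p = 0.801, edgeR) turned to 0.092 in TPM and 0.022 with the length offset, and none of these passed.

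Glul, glutamine synthetase, which joins ammonia to glutamate and is a classic marker of beta-catenin activity in hepatocytes, changed most among the 10. The gene lies on chromosome 1 (ENSMUSG00000026473.15, 153899944 to 153909723, plus strand). It stood at 542.4 and 600.8 CPM in NC and 352.7 and 324.5 in KO, so the groups were far apart. Glul fell by 40.8% (log2 fold change -0.76, SE 0.094, 95% interval -0.95 to -0.56, adjusted p = 5.61e-07, edgeR quasi-likelihood). In TPM it stood at 284.9 and 345.4 in NC, against 161.1 and 141.7 in KO, for a log2 fold change of -1.05 (adjusted p = 0.00586, limma on log2(TPM + 1)).

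Nkd1 and Axin2 are negative feedback genes, raised by the pathway they restrain, and both fell in counts. Nkd1, whose protein binds Dishevelled, lies on chromosome 8 (ENSMUSG00000031661.12, 88521354 to 88594884, plus strand). It stood at 507.3 and 506.6 CPM in NC and 368.8 and 343.6 in KO. The NC libraries were almost equal, and both KO libraries lay well below them. Nkd1 fell by 29.7% (log2 fold change -0.51, SE 0.092, adjusted p = 8.47e-05, edgeR quasi-likelihood), and in TPM the value was -0.55 (adjusted p = 0.0213, limma). Axin2, a scaffold like Axin1 whose transcription is itself raised by beta-catenin, lies on chromosome 11 (ENSMUSG00000000142.15, 108920349 to 108950783, plus strand). It stood at 316.8 and 380.3 CPM in NC and 260.7 and 253.2 in KO. Both KO libraries were lower, and the NC libraries differed from each other by more than the KO libraries did. Axin2 fell by 26.3% in counts (log2 fold change -0.44, SE 0.096, adjusted p = 0.000683, edgeR quasi-likelihood). Per transcript the fall was lost: Axin2 stood at 110.3 and 137.0 TPM in NC and 118.0 and 116.2 in KO, which overlap, and the TPM value was -0.070 (adjusted p = 0.743, limma).

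Glul, Nkd1 and Axin2 had the lowest values among the 10 log2 fold changes, and the 250 bases upstream of a RefSeq start of each are shown so that their promoters can be compared (GRCm38.p6, plus strand, 5′ to 3′, GC boxes in capitals). The Axin2 window is chr11:108920099-108920348, the Glul window chr1:153899679-153899928 and the Nkd1 window chr8:88527383-88527632, the last from a RefSeq start that lies inside the GENCODE gene.
Glul: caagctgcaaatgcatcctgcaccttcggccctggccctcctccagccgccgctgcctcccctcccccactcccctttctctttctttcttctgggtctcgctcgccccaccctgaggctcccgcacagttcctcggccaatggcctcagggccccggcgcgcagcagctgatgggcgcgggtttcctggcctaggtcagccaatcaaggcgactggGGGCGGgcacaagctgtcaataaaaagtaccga
Nkd1: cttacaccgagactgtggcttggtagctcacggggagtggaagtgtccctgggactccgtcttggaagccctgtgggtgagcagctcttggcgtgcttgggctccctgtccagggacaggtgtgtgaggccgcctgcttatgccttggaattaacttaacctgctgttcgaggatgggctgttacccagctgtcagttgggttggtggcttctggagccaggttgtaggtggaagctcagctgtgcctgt
Axin2: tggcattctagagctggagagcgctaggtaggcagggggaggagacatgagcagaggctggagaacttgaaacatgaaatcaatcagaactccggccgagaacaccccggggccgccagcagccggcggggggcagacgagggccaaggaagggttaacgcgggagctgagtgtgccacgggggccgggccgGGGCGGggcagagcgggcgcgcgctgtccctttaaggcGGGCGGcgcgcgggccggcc
The GC box was searched as GGGCGG on both strands. Axin2 held 2 matches, with their first bases 58 and 20 bases before the start, Glul held 1 match, 33 bases before it, and Nkd1 held 0. Of all 32851 promoter windows of this length, 32.7% held a match. A TCF/LEF match, searched on both strands as CTTTGAT and its variants that end in AA, TA or TT, was in none of the 3 windows, and 14.8% of all windows held one. Windows were searched for 7 of the 10 genes, 13 in all, and 1 of the 13, at a start of Lef1, held a TCF/LEF match. No window of the remaining genes was searched, so these counts do not cover all 10. These letters describe the windows, and enhancers outside them were not searched.

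Lgr5 and Rnf43 act on the receptors. Rnf43, a ubiquitin ligase that removes Frizzled from the cell surface (ENSMUSG00000034177.15, chromosome 11, 87662722 to 87735539, plus strand), stood at 107.7 and 117.2 CPM in NC and 120.5 and 131.7 in KO. The log2 fold change in counts was 0.16 (SE 0.094, 95% interval -0.029 to 0.36, adjusted p = 0.174, edgeR quasi-likelihood). In TPM the groups were further apart, at 52.1 and 51.8 in NC against 72.2 and 74.5 in KO, and Rnf43 passed there, with 0.49 (adjusted p = 0.0257, limma). Lgr5, the R-spondin receptor that marks Wnt-responsive stem cells, lies on chromosome 10 (ENSMUSG00000020140.15, 115450311 to 115587780, minus strand). It stood at 137.9 and 161.3 CPM in NC and 133.5 and 128.5 in KO, with a log2 fold change of -0.19 (95% interval -0.39 to 0.0039, adjusted p = 0.115, edgeR). Its TPM values, 34.8 and 41.3 in NC and 36.9 and 35.9 in KO, overlapped.

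The transcription factors Tcf7 and Lef1 bind DNA and carry beta-catenin to its targets. Tcf7 (ENSMUSG00000000782.15, chromosome 11, 52252371 to 52283014, minus strand) stood at 169.9 and 190.4 CPM in NC and 132.8 and 136.4 in KO. Both KO libraries were lower. Tcf7 fell by 25.3% (log2 fold change -0.42, SE 0.093, adjusted p = 0.000773, edgeR quasi-likelihood). In TPM the value was -0.30 and did not pass (adjusted p = 0.144, limma). Lef1, the close relative of Tcf7 (ENSMUSG00000027985.14, chromosome 3, 131110471 to 131224356, plus strand), was the least expressed of the 10, with NC libraries at 80 and 82.84 counts and KO libraries at 64 and 70.07. Its log2 fold change was -0.37 (SE 0.22, 95% interval -0.82 to 0.086, adjusted p = 0.196, edgeR quasi-likelihood), and at this depth a change of the size seen in Tcf7 lies within the interval.

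Counts and TPM parted for several of these genes, and the authors' weighted transcript length moved with the difference. That length is the mean length of a gene's transcripts weighted by their estimated abundance, so it changes when the mix of isoforms changes. It did not overlap between the groups for 6 of the 10 genes, against 36.9% of the 10657 tested genes with at least 2 annotated transcripts. The group mean differed by at least 10% for 4 of the 10, Glul, Axin2, Rnf43 and Lef1, against 20.3% of those genes. Axin2 transcripts measured 3295 and 3342 bases in NC and 2801 and 2660 in KO, a mean change of -17.7%. Those of Rnf43 measured 2438 and 2767 bases in NC and 2175 and 2203 in KO, a change of -15.9%. Both genes had shorter transcripts in KO, so the same count gave a higher TPM. The 4 lengths of Lef1 overlapped between the groups, at 1774 and 1271 bases in NC against 2638 and 1699 in KO.

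**Figure D3:**
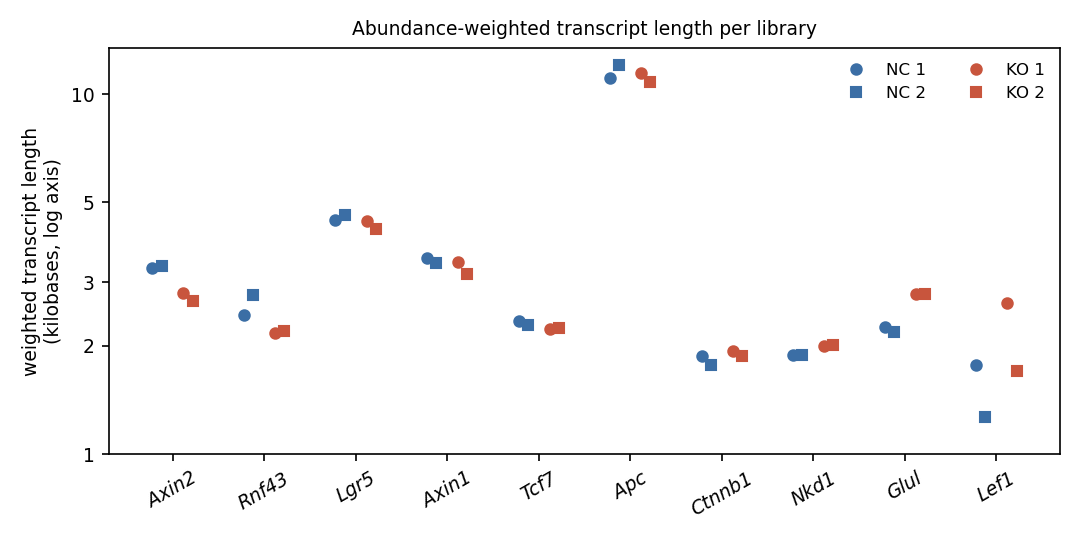
Abundance-weighted transcript length of each gene in each library, in kilobases on a log axis, for NC and KO. Glul lies higher in both KO libraries (2779 and 2783 bases against 2263 and 2184), while Axin2 and Rnf43 lie lower.

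Glul moved the other way, from 2263 and 2184 bases in NC to 2779 and 2783 in KO, a mean change of 25.1%. Of the 10657 genes, 2.48% had a larger lengthening. Glul has 1 transcript of 2792 bases, Glul-201, and its others are 379 to 681 bases long, so the weighted length bounds the share of Glul-201. That share was 74.9% to 78.1% in NC 1, 71.2% to 74.8% in NC 2, 99.4% to 99.5% in KO 1 and 99.6% in KO 2. The short transcripts together held 62.5 to 71.4 TPM in NC 1 and 87.0 to 99.4 in NC 2, and under 1 TPM in KO. Glul-201 alone held 213.5 to 222.5 and 246.0 to 258.4 TPM in NC, against 160.1 to 160.2 and 141.1 to 141.2 in KO. The log2 ratio of its group means was therefore -0.61 to -0.68, near the value from counts. Tcf7 has only 2 transcripts, of 2471 and 1742 bases. The longer held 82.6% and 75.0% of Tcf7 TPM in NC and 66.2% and 68.7% in KO. It stood at 70.9 and 78.0 TPM in NC, against 51.4 and 52.0 in KO, while the shorter held 15.0 and 26.0 in NC and 26.2 and 23.6 in KO. The groups lay apart for the longer Tcf7 transcript alone. These transcript values are a description, and no test was made of them.

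Each library's effective length was then set as an offset in the count fit, an alternative chosen after the lengths had been seen. With it 5 of the 10 genes passed, against a background of 23.1% (12.5% higher, 10.6% lower). Glul (-1.13, adjusted p = 0.000488), Nkd1 (-0.62, adjusted p = 0.00254) and Tcf7 (-0.38, adjusted p = 0.0267) fell, and Apc (0.45, adjusted p = 0.0220) and Rnf43 (0.43, adjusted p = 0.0149) rose in that edgeR fit. Axin2 no longer passed (-0.15, adjusted p = 0.326), and Lef1 stood at -0.94 (adjusted p = 0.0569). In TPM 3 of the 10 passed, against a background of 14.8%: Glul and Nkd1 fell, where 4.85% of all genes did, and Rnf43 rose, where 9.93% did. TPM values did not overlap between the groups for 7 of the 10, against 62.4% of all genes. Glul and Nkd1 were lower in KO and passed in counts, in TPM and with the offset. Ctnnb1, Axin2, Lgr5, Tcf7 and Lef1 were also lower by each of these measures, but did not pass in all of them.

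The rest of the pathway was read from 8 lists of 118 further genes, of which 72 passed the low-count filter. Of these, 31 changed (43.1%, against 37.9% of all genes tested), 17 upward and 14 downward, with a median log2 fold change of 0.031. The number called fell to 23 without NC 1 (8 higher, 15 lower) and to 22 without KO 2 (10 higher, 12 lower), and to 17 with the length offset. The balance of higher and lower calls among these genes thus changed with 1 library.

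**Figure D4:**
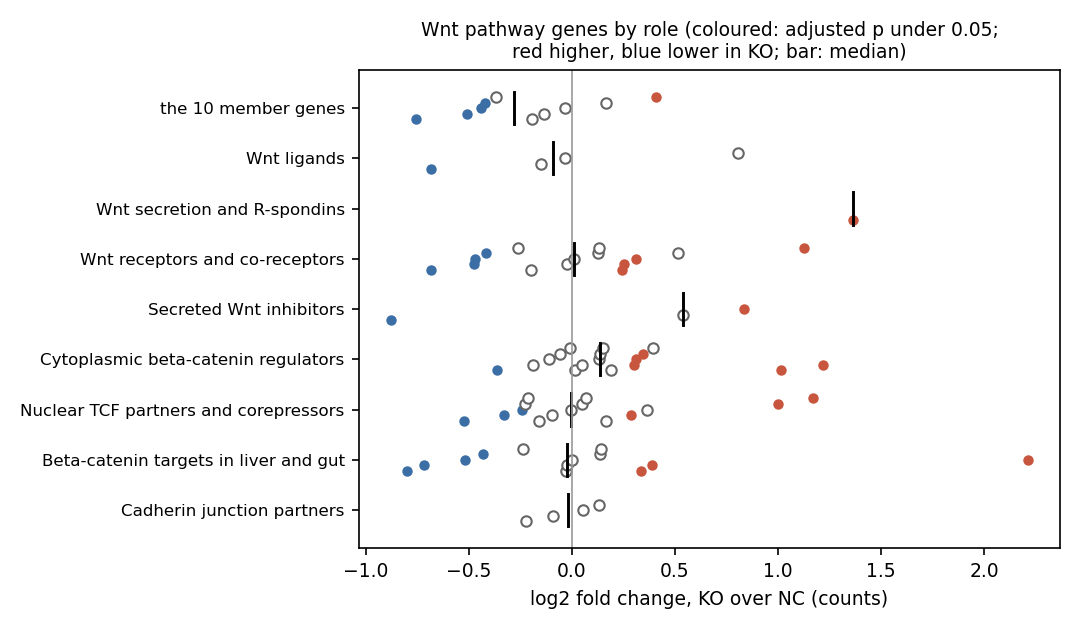
Log2 fold change of KO over NC for the tested genes of each pathway list, from expected counts, with genes at an adjusted p under 0.05 marked. Each of the larger lists holds genes on both sides of 0, from -0.88 for Notum upward.

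Among 19 Wnt ligands only 4 passed the filter, and 15 had fewer than 10 counts in all libraries together. Wnt6 was the highest, at a mean of 53.8 TPM, and did not pass (log2 fold change -0.15, adjusted p = 0.247, edgeR). Wnt5a, a ligand best known for signalling without beta-catenin, stood at 22.2 and 25.7 CPM in NC, against 14.2 and 15.7 in KO, and fell (-0.68, adjusted p = 0.000308, edgeR), but did not pass with the length offset (-0.47, adjusted p = 0.348) or in TPM (-0.31, adjusted p = 0.574, limma). Porcn, which attaches the lipid that Wnt proteins need for secretion, rose from 1.76 and 1.81 CPM to 4.17 and 5.03 (1.36, adjusted p = 0.000859, edgeR). Wls, the carrier of Wnt proteins to the surface, and all 4 R-spondins, the ligands of Lgr5, were listed at 0 counts in every library. A count of 0 allows up to 3 counts, 0.216 to 0.259 CPM depending on the library, and covers counting error only.

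Of 15 tested receptors and co-receptors, 4 rose and 4 fell (53.3% called, against 37.9% of all genes tested), with a median of 0.0095. The Frizzled receptor Fzd4 fell from 31.1 and 35.2 CPM to 18.4 and 23.0 (-0.68, adjusted p = 0.000151, edgeR), and in TPM had a value of -0.52 that did not pass (adjusted p = 0.0880, limma). Fzd5, another Frizzled, fell from 61.0 and 73.1 CPM to 49.6 and 47.3 (-0.47, adjusted p = 0.000736), and was not called with the length offset (-0.26, adjusted p = 0.227) or in TPM (-0.17, adjusted p = 0.569). Fzd10 had the highest mean TPM of the Frizzleds, 19.1, and did not pass (0.13, adjusted p = 0.355). Lgr4, the broadly expressed relative of Lgr5, stood at 33.1 and 32.8 CPM in NC, against 22.0 and 25.4 in KO, and fell (-0.47, adjusted p = 0.00268), but did not pass with the offset (-0.38, adjusted p = 0.236) or in TPM (-0.29, adjusted p = 0.363). Lgr6, the other relative, rose from 3.52 and 1.73 CPM to 5.77 and 5.48 (1.13, adjusted p = 0.00374), but the call was lost without NC 2 (0.68, adjusted p = 0.0951), with the length offset (0.53, adjusted p = 0.597) and in TPM (0.41, adjusted p = 0.599, limma). The TPM values of Lgr6 overlapped between the groups, at 3.17 and 0.87 in NC and 4.76 and 1.38 in KO. Znrf3, the partner ligase of Rnf43, stood at 75.8 and 76.5 CPM in NC and 74.3 and 79.1 in KO (0.0095, 95% interval -0.18 to 0.20, adjusted p = 0.951). Its sign changed in some alternatives, where it did not pass either. Lrp5 (0.24, adjusted p = 0.0321) and Lrp6 (0.25, adjusted p = 0.0374), named after their values were seen, were called in counts. Neither was called with the length offset (0.18 and 0.22, adjusted p = 0.153 and 0.103, edgeR). In TPM neither passed (0.25 and 0.28, adjusted p = 0.146 and 0.144, limma). Lrp5 was not called when any single library was left out, and Lrp6 stood at 0.16 without NC 1 and 0.18 without KO 2, neither passing.

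Of the 3 tested genes on the list of secreted inhibitors and their receptors, Notum fell and Kremen1 rose. That is 66.7% called, against 37.9% of all genes tested. Notum, an enzyme that strips the lipid from Wnt proteins and is raised by beta-catenin signalling, stood at 71.6 and 70.7 CPM in NC and 39.7 and 37.8 in KO. Its log2 fold change was -0.88 (SE 0.099, adjusted p = 9.86e-08, edgeR quasi-likelihood), and it stayed past the threshold in TPM (adjusted p = 0.00642, limma) and with the length offset (adjusted p = 0.00108). Kremen1, a receptor for Dkk proteins, rose from 13.9 and 14.3 CPM to 23.9 and 26.5 (0.84, adjusted p = 2.29e-05, edgeR).

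Of 17 tested cytoplasmic regulators, 35.3% were called, against 37.9% of all genes tested (19.7% higher, 18.2% lower). Of these regulators 5 rose and 1 fell, with a median of 0.14. The fall was in Gsk3a, a kinase that phosphorylates beta-catenin, from 189.3 and 177.2 CPM to 145.5 and 139.4 (-0.36, adjusted p = 0.00256, edgeR), and in TPM it had a value of -0.30 that did not pass (adjusted p = 0.102, limma). Frat1, which binds the Gsk3 kinases, rose from 2.99 and 2.38 CPM to 7.06 and 5.40 (1.22, adjusted p = 0.000746, edgeR). The kinase Csnk1e (0.31, adjusted p = 0.00873) and the ubiquitin ligase adaptor Btrc (0.34, adjusted p = 0.00895) rose by less, and neither passed without NC 1 (adjusted p = 0.0601 and 0.0742). Csnk1e was not called without NC 2 either (0.31, adjusted p = 0.0571), nor in TPM (0.40, adjusted p = 0.0634, limma). Btrc was not called with the length offset (0.18, adjusted p = 0.294) or in TPM (0.24, adjusted p = 0.213). Apc2 held 2 to 5 counts a library and Nkd2 at most 1, so the nearest relatives of Apc and Nkd1 were under the filter.

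Of 15 tested nuclear partners and corepressors, 3 rose and 3 fell (40% called, against 37.9% of all genes tested), with a median of -0.0065. Tle2, a Groucho corepressor that binds TCF proteins, rose from 16.1 and 14.01 CPM to 30.7 and 29.3 (0.999, adjusted p = 1.34e-06, edgeR). Ctbp1, another corepressor, fell from 96.1 and 89.6 CPM to 72.4 and 56.6 (-0.53, adjusted p = 0.000284), and in TPM had a value of -0.56 that did not pass (adjusted p = 0.0524, limma). The Pygopus genes, whose proteins are recruited to beta-catenin through Bcl9, went opposite ways in counts. Pygo1 rose (1.17, adjusted p = 0.00605) but was not called without KO 2 (0.83, adjusted p = 0.191) or by DESeq2 (adjusted p = 0.0531). Pygo2 fell (-0.33, adjusted p = 0.00724) but was not called without NC 2 (adjusted p = 0.0789), with the length offset (-0.13, adjusted p = 0.373) or in TPM (-0.054, adjusted p = 0.771). Tcf7l2, a further member of the TCF family, was measured at -0.21 (95% interval -0.45 to 0.019, adjusted p = 0.141), which turned to 0.13 in TPM and 0.059 with the offset. Tcf7l1 held 0 to 3 counts a library and was not tested.

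Of 13 tested targets in liver and gut, 3 rose and 4 fell (53.8% called, against 37.9% of all genes tested), with a median of -0.022. Lect2, a secreted liver protein, fell from 27.8 and 26.9 CPM to 16.0 and 15.4 (-0.80, adjusted p = 2.59e-05, edgeR). Sox9, a progenitor and bile duct factor, fell from 94.99 and 112.2 CPM to 79.7 and 65.0 (-0.52, adjusted p = 0.000313), and in TPM had a value of -0.44 that did not pass (adjusted p = 0.108, limma). Ccnd1, cyclin D1, fell from 964.0 and 1033 CPM to 782.8 and 700.9 (-0.43, adjusted p = 0.000844), and was not called with the length offset (-0.31, adjusted p = 0.136) or in TPM (-0.25, adjusted p = 0.358). Oat, ornithine aminotransferase, which is found with Glul around the central vein, rose from 81.7 and 80.9 CPM to 106.0 and 107.0 (0.39, adjusted p = 0.00142), opposite in direction to Glul. Sp5, named after its values were seen and among the most direct beta-catenin targets, stood at 282.5 and 293.7 CPM in NC and 309.4 and 266.4 in KO. Its interval ran from -0.19 to 0.19 (adjusted p = 0.994), so a change as large as that of Axin2 in counts lies outside it. Myc, named likewise, stood at -0.24 (adjusted p = 0.0593), and single libraries decided its call. It passed without NC 1 (-0.35, adjusted p = 0.0193) and without KO 1 (-0.36, adjusted p = 0.00423), but stood at -0.12 without NC 2 (adjusted p = 0.507) and -0.13 without KO 2 (adjusted p = 0.392). Myc also passed with robust fitting (adjusted p = 0.0349) and without a low-count filter (adjusted p = 0.0365). The list did not move in 1 direction.

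Cadherin junctions hold a separate pool of beta-catenin at the membrane. Of 7 junction partners 4 were tested, and 0 passed in edgeR or in DESeq2, with 1 at an unadjusted p under 0.05 in each. Over all genes tested, 37.9% passed in edgeR and 25.7% in DESeq2. Jup, plakoglobin, the closest relative of beta-catenin, stood at -0.094 (95% interval -0.28 to 0.093, adjusted p = 0.443, edgeR), and at -0.31 with the length offset, where it passed (adjusted p = 0.0378).

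Antisense overlaps limit some of these values, since the sources used here do not say whether reads were counted by strand. Of the 10 genes, Axin2, Ctnnb1, Glul and Lef1 have exons that overlap a gene on the opposite strand. Those partners held few counts: 0 for Gm11670 beside Axin2, 0 to 4.02 for Ulk4 beside Ctnnb1, 7 to 19 for Teddm2 beside Glul and 0 to 6.93 for Gm43352 beside Lef1. Wnt5a, Fzd5, Csnk1e, Btrc, Gsk3a, Tle2, Notum and Ccnd1 also have such overlaps, as do the untested Apc2 and Tcf7l1. The counts of their partners were not examined, so the size of any such effect on these genes is not known.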

How the data were processed

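RNA from 4 Hepa1-6 samples, 2 NC and 2 KO, was sequenced from directional libraries, per the labels' protocols. Each file holds 1 sample. The expected counts, estimated read counts per gene and not normalised, and the TPM values, scaled by transcript length, were deposited by the authors as RSEM gene-level columns, per the file headers, with the weighted and effective transcript lengths. The deposited FPKM values were not used. STAR, RSEM, FastQC, DESeq2, GRCm38 and mm10 are named in the submitters' processing notes. The annotation release and strand setting are not given in the sources used here. Of 54838 listed genes, 54809 matched GENCODE M21 (GRCm38) by ID without version, which gave coordinates, transcript lengths and overlaps. Promoters are RefSeq's, of GRCm38.p6.

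Expected counts were rounded (library totals moved by at most 0.000188%) and filtered with filterByExpr, which left 12510 genes. TMM factors were 0.981 to 1.02. KO was compared with NC by edgeR 4.0.16 (R 4.3.3), quasi-likelihood, group only, two-sided, with Benjamini-Hochberg adjustment over all genes tested and a threshold of 0.05. Standard errors came from the fitted weights and the moderated dispersion (prior degrees of freedom 25.8). The test was checked on simulated data. Mean ± SD values have n = 2. Intervals are 95% and cover counting error and the spread of these samples, limits for counts of 0 cover counting error only, and PCR copies were not separated. Libraries correlated at 0.989 within NC and within KO (log scale, across genes, which are not independent) and at 0.963 to 0.972 between the groups.

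Alternatives were DESeq2 1.42.0, its size factors in edgeR, robust fitting, other filters, limma 3.58.1 on log2(TPM + 1) and log2(TPM + 0.1), a replicate block, leaving out each library and, added after the data were seen, an effective length offset. A fold change on the log2(TPM + 1) scale understates the change of low genes.

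The 10 genes and the pathway and marker lists were chosen with earlier results of these data known. The genes named were Acvr2a, the 10, the up to 4 lowest p past 0.05 per list, the relatives Apc2, Znrf3, Lgr4, Tcf7l1, Tcf7l2, Nkd2 and Jup, and the highest Wnt ligand and Frizzled by mean TPM. Sp5, Myc, Lrp5 and Lrp6 were named after their values were seen.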

Additional observations from a re-analysis of the deposited data

How the results depend on the processing

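Of the 558 values that 40 single genes took under an alternative, 443 kept their direction and their side of 0.05, 88 no longer passed, 9 newly passed and 18 changed sign. Over all genes, 4741 passed in counts, against 1739 (1168 higher, 571 lower) on log2(TPM + 1), 1698 on log2(TPM + 0.1), 0 of 20640 on log2(TPM + 1) without a filter (4506 at an unadjusted p under 0.05, limma) and 2892 with the effective length offset. The share of higher calls was 51.9% in counts and 67.2% in TPM. Of the 10 genes, 5 passed in counts, 3 with either TPM pseudocount and 0 without the TPM filter (4 at an unadjusted p under 0.05). Of the 72 pathway genes tested in counts, 31 passed, where 37.9% of all genes did. With the offset 17 passed, where 23.1% of all genes did. In TPM 7 of 67 passed with either pseudocount, where 14.8% of all genes passed on log2(TPM + 1). Without the TPM filter 0 of 91 passed (22 at an unadjusted p under 0.05, limma). Leaving out each library gave 3507 to 4488 genes, 4 to 5 of the 10 and 22 to 30 pathway genes, with the lone sample of a group assumed to vary like the other group. Signs changed for Axin1 (0.092, 0.095 and 0.092 in the TPM fits, 0.022 with the offset), Tcf7l2 (0.13 in each TPM fit, 0.059 with the offset), Sp5 (0.0081 with the CPM filter, 0.053 in each TPM fit, -0.11 to 0.10 leaving out libraries), Znrf3 (-0.0046 without a filter, -0.038 to 0.053 leaving out libraries) and Fzd10 (-0.022 to 0.30 leaving out libraries). None of these 5 passed in counts. The replicate numbers did not pair the samples (correlation of same-numbered deviations -0.012), and with the replicate block 5006 genes, 5 of the 10 and 31 pathway genes passed. Myc passed with the block (-0.24, adjusted p = 0.0457, edgeR). Of the 10 genes Lef1 has the fewest counts, 64 in its lowest library, and the widest interval. The cause of these changes was not tested.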
